A study of Mus musculus with 14 samples.

Results

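The 10 genes described here handle the amino acid arginine in the mouse lung: the arginases *Arg1* and *Arg2*, the nitric oxide (NO) synthases *Nos1*, *Nos2* and *Nos3*, the cationic amino acid transporters *Slc7a1* and *Slc7a2*, the citrulline recycling enzymes *Ass1* and *Asl*, and the ornithine decarboxylase *Odc1*. They were taken by gene name from a table of 24270 genes, each on 1 row, and all 10 were among the 22828 genes that passed a filter on low values. RNA was sequenced from lung tissue of C57BL/6 mice in 4 groups: saline-treated wild-type mice (*Mcemp1*+/+, n = 3), OVA-challenged wild-type mice (n = 4), saline-treated *Mcemp1*-/- mice (n = 3) and OVA-challenged *Mcemp1*-/- mice (n = 4). Mice aged 6 to 8 weeks at the start were immunized with chicken ovalbumin (OVA) through the abdominal wall on days 1, 4 and 7, and 5 days after the last of these injections they began to receive OVA through the nose every week for 8 weeks. Controls were given saline at both stages, so no group was untreated. The methods of the study describe lavage of the airways and then perfusion of the lung, which was isolated for uses that include RNA sequencing. The knockout was made by CRISPR/Cas9 with a small frameshifting deletion in exon 1, so it is present in every cell of the animal and still leaves transcript for the sequencing to count. Libraries are named by treatment, genotype (WT or KO) and replicate number, for example OVA KO 4.

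Arginine lies at a branch point. Arginases split it into ornithine and urea, and ornithine feeds polyamines through *Odc1* and proline, a building block of collagen. NO synthases turn it into NO and citrulline, and *Ass1* followed by *Asl* turns citrulline back into arginine. In mouse macrophages, *Arg1* is a classical target of interleukin-4 and interleukin-13 through STAT6, while *Nos2* is a classical target of interferon gamma and bacterial products. *Arg2* is a mitochondrial arginase, *Nos1* is the neuronal and muscle synthase, and *Nos3* is the endothelial one.

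Values are the deposited normalized read counts, compared here between libraries for a gene, though how they were normalized is not given in the sources used. Differences are on the log2(value + 0.502) scale from limma across all 22828 genes, with Benjamini-Hochberg adjusted p-values, and a gene passed at an adjusted p under 0.05. The labels number the samples of a group and say nothing of separate litters or experiments, so a p-value here speaks of the spread among these libraries only, some of which may be technical. In bulk lung, fewer cells of a type and less RNA per cell cannot be told apart. The libraries held an estimated 47.3 to 67.1 M reads. *Mcemp1* itself lay between 9.84 and 20.1 in the 7 wild-type libraries and between 3.5 and 4.98 in the 7 knockout libraries, without overlap. Markers of type 2 alveolar cells summed to between 11700 and 20900 over the libraries. The groups overlapped there and in the sums of endothelial (2270 to 4280), mast cell (398 to 578) and smooth muscle markers (233 to 370). Some other lists differed. With OVA in wild type all 10 heart muscle markers fell (sums of 689 to 1170 in saline WT and 52.2 to 144 in OVA WT), as did all 6 club cell markers (28000 to 34400 and 6120 to 9960), 4 of 8 fat markers (119 to 248 and 19.2 to 61.2) and 3 of 8 ciliated cell markers (606 to 666 and 251 to 540). The median log2 differences of these 4 lists were -2.9, -1.98, -2.45 and -1.11 with OVA in wild type, and -0.96, -1.09, -1.19 and -0.53 in knockout. Among all genes, 7.45% were lower with OVA in wild type. Neutrophil markers summed to 51.4 to 130 in saline WT and 139 to 293 in saline KO. After OVA they summed to 37.3 to 170 in WT and 228 to 320 in KO. The genotypes did not overlap under either treatment, though 0 of 6 neutrophil markers passed by limma. Their median log2 differences, knockout against wild type, were 1.07 after saline and 1.1 after OVA. The part of these cells in the members' changes was not tested. OVA WT 2 stood apart in T cell markers, at 222 against 41.1 to 44.1 in the other OVA WT libraries, and the goblet cell marker sum peaked in OVA KO 3 (2330) and OVA WT 2 (1450).

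In GRCm38 with the GENCODE M21 annotation, *Arg1* (ENSMUSG00000019987) spans chr10:24915221-24927484 on the minus strand and *Arg2* (ENSMUSG00000021125) spans chr12:79130777-79156301 on the plus strand, where it overlaps *Vti1b* on the other strand. The synthase genes lie at chr5:117781032-117958840 (*Nos1*, ENSMUSG00000029361), chr11:78920787-78960254 (*Nos2*, ENSMUSG00000020826) and chr5:24364810-24384474 (*Nos3*, ENSMUSG00000028978), all on the plus strand. *Nos3* overlaps *Atg9b* on the opposite strand. The transporters lie at chr5:148327410-148399904 on the minus strand (*Slc7a1*, ENSMUSG00000041313) and chr8:40862396-40922308 on the plus strand (*Slc7a2*, ENSMUSG00000031596). *Ass1* (ENSMUSG00000076441) lies at chr2:31470207-31520672 on the plus strand, *Asl* (ENSMUSG00000025533) at chr5:130011258-130029247 on the minus strand and *Odc1* (ENSMUSG00000011179) at chr12:17544794-17551505 on the plus strand. Whether strand was used in counting is not given in the sources used here, so reads of *Arg2* and *Vti1b*, and of *Nos3* and *Atg9b*, may have been shared.

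RefSeq start-site windows (250 bases before to 50 after the start, GRCm38.p6) were at hand for *Ass1*, *Nos1*, *Odc1* and *Slc7a1*. They were searched on both strands for the STAT6 spacing TTCNNNNGAA, the interferon-stimulated response element core GAAANNGAAA, the broad NF-kappaB pattern GGGNNNNNCC and the E box CACGTG bound by MYC. A short stretch near *Ass1*, the member other than *Arg1* that changed below, is shown because it holds the E box, given in capitals. It is chr2:31470222-31470251 on the plus strand, with the E box starting 36 bases before the RefSeq start. The GENCODE M21 span of *Ass1* starts earlier, at chr2:31470207, so the stretch lies inside that span.
Ass1: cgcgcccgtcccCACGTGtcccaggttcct

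Among 32817 windows of the same length, 7.15% held the E box, which among the 4 members' windows was found in that of *Ass1*. The STAT6 spacing (6.94% of windows) and the interferon core (3.43%) were found in 0 of the 4 members. The NF-kappaB pattern (50.8%) was found in a window of all 4. *Slc7a1* had a further window, chr5:148392766-148393065, that held no match. The *Nos1* window, chr5:117866589-117866888, lies inside the GENCODE span of *Nos1* given above and not at its start. The members are counted by gene and the percentages by window. These are matches of letters and were not tied to any change below.

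OVA challenge raised 2 of the 10 genes in wild-type lungs, *Arg1* and *Ass1*, and lowered none. Across all genes tested in that comparison, 4.36% were higher and 7.45% were lower. In *Mcemp1*-/- lungs none of the 10 passed by limma in either direction, against 0.21% higher and 0.166% lower among all genes, and 1 member had an unadjusted p under 0.05, as did 11.3% of all genes. Between the genotypes none of the 10 passed after OVA (0.184% of genes higher and 0.206% lower in the knockout) or after saline (0.00876% higher and 0.0745% lower). The unadjusted p was under 0.05 for 3 members after OVA and 1 after saline, and for 17.8% and 3.32% of all genes. The difference between the 2 OVA responses passed for none of the 10, against 0.00438% higher and 0% lower among all genes, with 2 members and 7.02% of all genes at an unadjusted p under 0.05. Both OVA responses and both genotype comparisons use the same 4 groups, so they share samples.

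**Figure D1:**
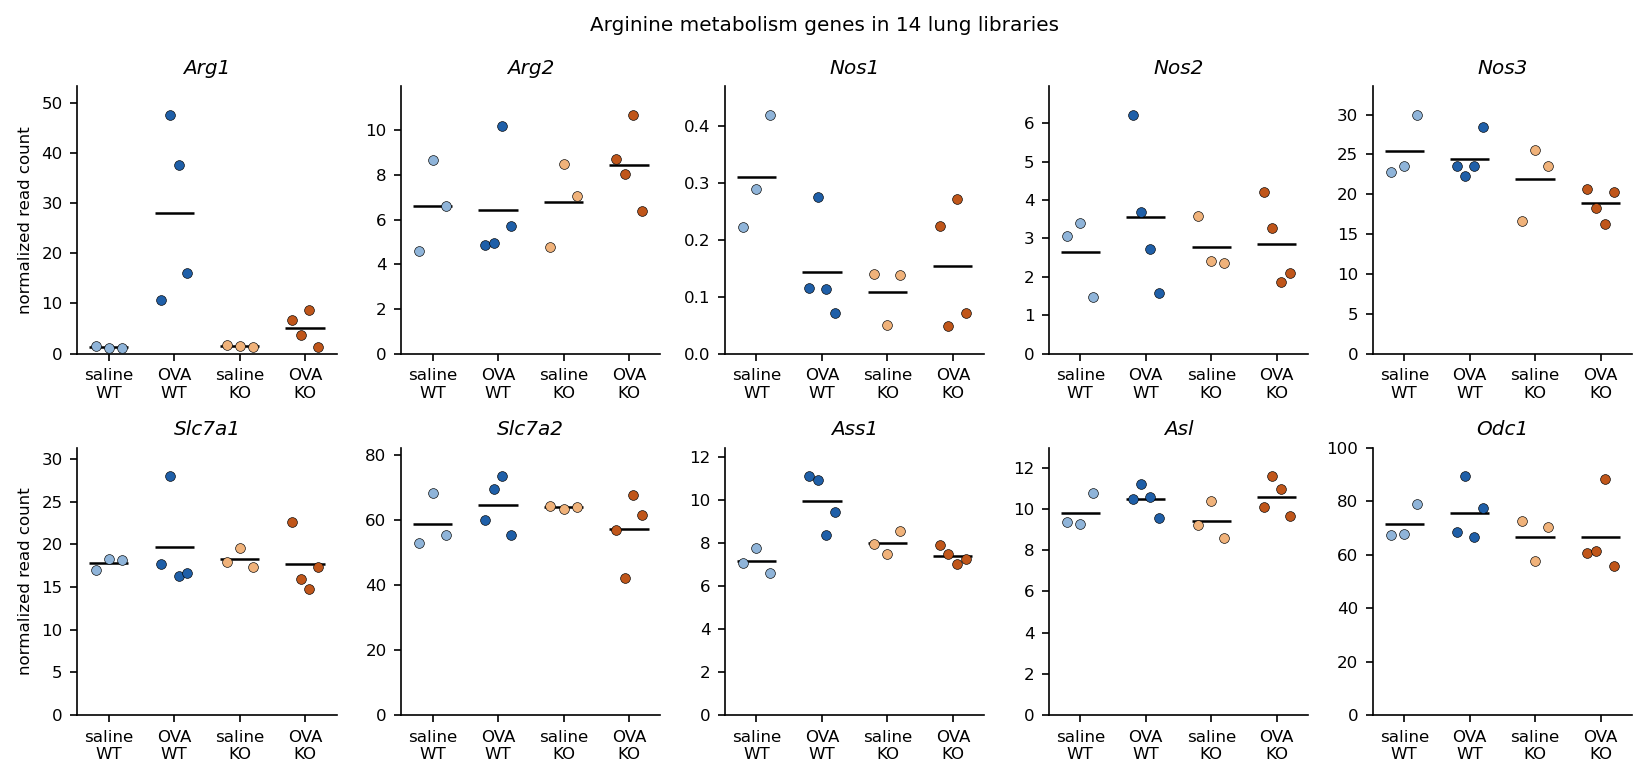
Normalized read count (vertical axis, from 0, its own scale for each gene) of the 10 arginine metabolism genes in each of 14 libraries (points), by treatment and genotype, with the group mean as a line. *Arg1* in the 4 OVA WT libraries lies between 10.6 and 47.6, above every other library, and *Ass1* in OVA WT lies between 8.36 and 11.1.

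*Arg1*, the cytosolic arginase of liver and of alternatively activated macrophages, was scarce in saline-treated lungs. It read 1.45, 1.14 and 1.02 in saline WT 1 to 3 and 10.6, 47.6, 37.6 and 16.1 in OVA WT 1 to 4. Every OVA WT library lay above every saline WT library. The group means were 1.2 ± 0.221 (SD, n = 3) and 28 ± 17.5 (SD, n = 4), a 23.3-fold ratio of means. The log2 difference was 3.83 (SE 0.53, 95% confidence interval 2.68 to 4.98, limma adjusted p = 0.00071), and it passed under every one of the 26 alternative settings tried.

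In *Mcemp1*-/- lungs *Arg1* read 1.63, 1.52 and 1.3 in saline KO 1 to 3 and 6.74, 3.71, 8.65 and 1.29 in OVA KO 1 to 4. OVA KO 1 to 3 lay above the saline KO libraries, while OVA KO 4 lay just below them, so the groups overlapped. The log2 difference was 1.25 (SE 0.53, 95% confidence interval 0.11 to 2.4) with a limma adjusted p of 0.39. Without OVA KO 4 it was 1.72, with an adjusted p of 0.11.

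After OVA, the highest knockout library (8.65) lay below the lowest wild-type library (10.6). The knockout mean was 5.09 ± 3.25 (SD, n = 4), 0.182 times the wild-type mean. The log2 difference of -2.35 (SE 0.49, 95% confidence interval -3.41 to -1.29) narrowly missed the threshold, with a limma adjusted p of 0.061. It passed under 3 of 26 alternatives, among them weighting libraries by their quality (adjusted p = 0.026) and leaving out OVA KO 1 (-2.56, adjusted p = 0.025), and over all alternatives the adjusted p ran from 0.025 to 0.27. After saline the genotypes overlapped, with a log2 difference of 0.23 (95% confidence interval -1 to 1.45, limma adjusted p = 1). The difference between the OVA responses was -2.58 (SE 0.75, 95% confidence interval -4.20 to -0.96), with an unadjusted limma p of 0.0044 and an adjusted p of 0.64, so the responses of the genotypes were not shown to differ.

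*Arg2*, the mitochondrial arginase of kidney and many other tissues, had no such rise. Its values ran from 4.61 to 8.65 in saline WT, from 4.87 to 10.2 in OVA WT, from 4.77 to 8.51 in saline KO and from 6.39 to 10.7 in OVA KO. All 4 ranges overlapped. The log2 difference with OVA was -0.06 in wild type (95% confidence interval -0.65 to 0.52, limma adjusted p = 0.92) and 0.31 in knockout (-0.27 to 0.90, limma adjusted p = 0.72).

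The make-up of arginase transcript differed between the groups. Dividing each value by the length of all the gene's annotated exons in kilobases (kb), *Arg1* made up 7.8% to 16.8% of *Arg1* plus *Arg2* in the saline WT libraries and 58.3% to 86.1% in the OVA WT libraries. In the knockout the share was 10.3% to 18% after saline and 11.4% to 34.1% after OVA. OVA WT 1, with the smallest share in its group, still lay above every OVA KO library, and OVA KO 4 lay inside the saline range. These shares were computed without a test.

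**Figure D2:**
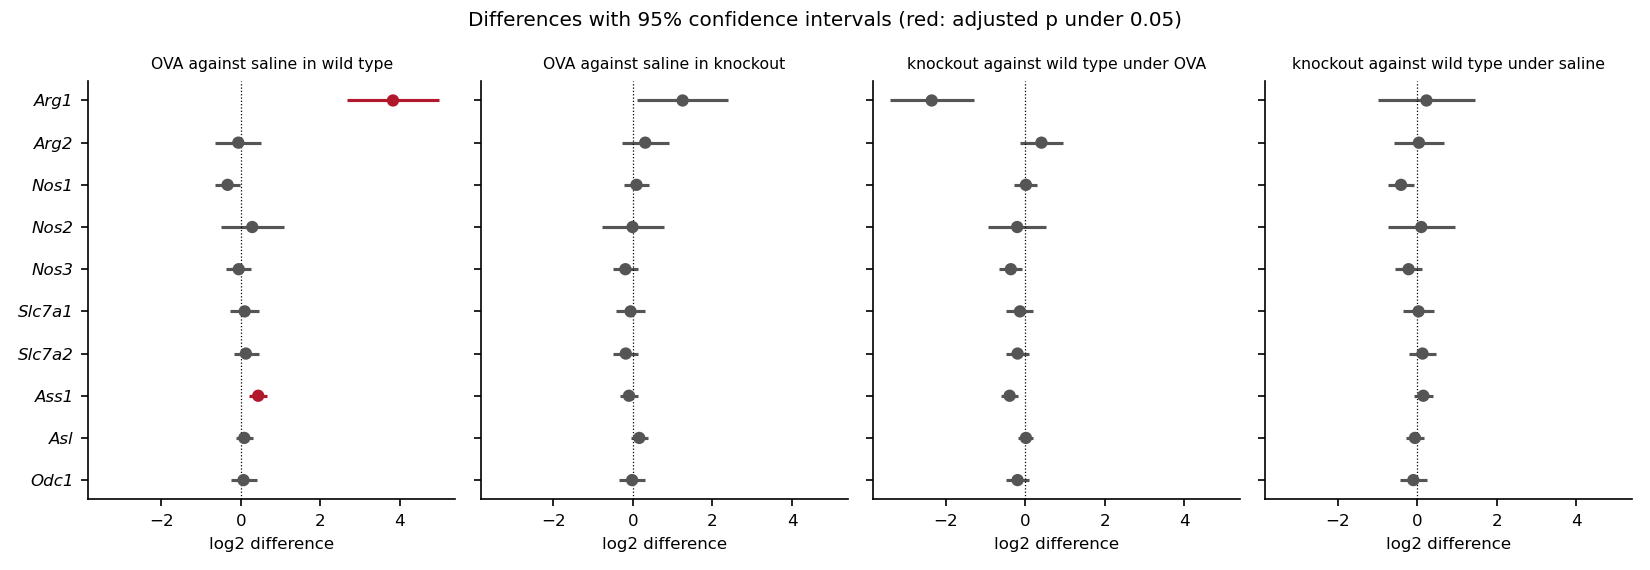
Log2 difference (horizontal axis) of each gene in 4 comparisons, the first named group minus the second, with its 95% confidence interval from limma, and with genes past an adjusted p of 0.05 in red. *Arg1* (3.83) and *Ass1* (0.44) are the red points, both in OVA against saline in wild type, and the *Arg1* interval after OVA between genotypes (-3.41 to -1.29) lies below 0 without passing the adjusted threshold.

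Of the NO synthases, none passed in any comparison. *Nos2*, the inducible synthase of activated macrophages and epithelium, read 3.06, 3.4 and 1.48 in saline WT and 6.22, 3.68, 2.71 and 1.58 in OVA WT. The groups overlapped, with OVA WT 1 the highest and OVA WT 4 near the lowest saline library. The log2 difference was 0.29 (95% confidence interval -0.49 to 1.08, limma adjusted p = 0.67). The knockout ranges were 2.35 to 3.58 after saline and 1.85 to 4.2 after OVA, with a difference of -0.01 (-0.79 to 0.78, limma adjusted p = 1). In wild type the upper bound for *Nos2*, 1.08, lay below the lower bound for *Arg1*, 2.68.

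*Arg1* and *Nos2* draw on the same substrate, and their ratio per kb of exon moved with *Arg1*. It lay between 0.664 and 1.36 in saline WT and between 3.38 and 27.4 in OVA WT, where OVA WT 1 gave the lowest value and the other libraries 20.1 or more. In the knockout it lay between 0.902 and 1.25 after saline and between 1.22 and 9.26 after OVA. Here OVA KO 4 lay within the saline KO range and OVA KO 1 to 3 above it. The low ratio of OVA WT 1 comes with both the lowest *Arg1* of its group (10.6) and the highest *Nos2* of all libraries (6.22).

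*Nos3*, the synthase of vascular endothelium, made up most of the synthase transcript per kb, from 80.1% to 95.1% across the 14 libraries. It read 22.8, 23.6 and 30 in saline WT, 23.6, 22.3, 23.5 and 28.4 in OVA WT, 16.7, 25.6 and 23.5 in saline KO, and 20.7, 18.3, 16.3 and 20.3 in OVA KO. In the deposited values all 4 OVA KO libraries lay below all 4 OVA WT libraries. As a share of the column total the groups overlapped, with OVA KO 4 at 21.1 parts per M and OVA WT 1 at 20.5. The log2 difference after OVA was -0.36 (SE 0.14, 95% confidence interval -0.65 to -0.07), with an unadjusted limma p of 0.018 and an adjusted p of 0.19. Endothelial markers summed to 2270 to 3750 in OVA KO and 2940 to 4280 in OVA WT, overlapping. Their part in the difference was not tested.

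*Nos1* was near the limit of detection, with an estimated 2 to 27 reads per library. Its values were 0.222, 0.29 and 0.42 in saline WT, 0.071 to 0.275 in OVA WT, 0.0501 to 0.139 in saline KO and 0.0476 to 0.272 in OVA KO. The saline WT libraries lay above the saline KO libraries, with a log2 difference of -0.41 for knockout against wild type, an unadjusted limma p of 0.019 and a limma adjusted p of 1. OVA against saline in wild type gave -0.33, with an unadjusted limma p of 0.035 and a limma adjusted p of 0.15. Without OVA WT 2 and OVA KO 3 it gave -0.43, with a limma adjusted p of 0.04. Heart muscle markers were highest in the same group, at 689 to 1170 in saline WT against 311 to 619 in saline KO, and their part in these differences was not tested.

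**Figure D3:**
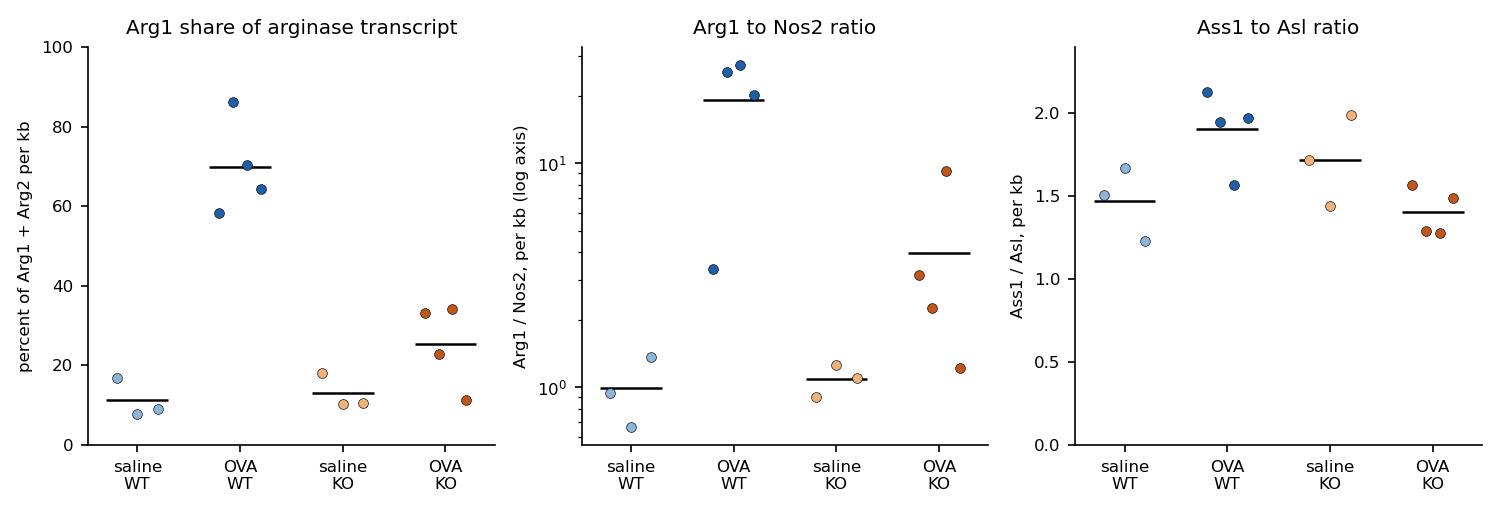
Ratios of values per kb of exon in each library (points) by group, with the group mean as a line: *Arg1* as a percent of *Arg1* plus *Arg2* (left), *Arg1* over *Nos2* on a log axis (middle) and *Ass1* over *Asl* (right). The *Arg1* share lies between 58.3% and 86.1% in OVA WT and at 34.1% or less elsewhere.

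The transporters that bring arginine into cells, *Slc7a1* (CAT-1, found in most cells) and *Slc7a2* (CAT-2, the carrier induced in activated macrophages and abundant in liver), did not pass in any comparison. *Slc7a2* ran from 52.9 to 68.4 in saline WT, between 55.3 and 73.5 in OVA WT, 63.5 to 64.2 in saline KO and 42.1 to 67.6 in OVA KO. The groups overlapped, and OVA KO 2 was the lowest library. Its log2 difference with OVA was 0.13 in wild type (95% confidence interval -0.18 to 0.45, limma adjusted p = 0.63) and -0.18 in knockout (-0.50 to 0.13, limma adjusted p = 0.68). It made up 75.8% to 85.3% of the transporter pair per kb in every library.

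*Slc7a1* read 17, 18.3 and 18.2 in saline WT and 17.7, 28, 16.3 and 16.7 in OVA WT. OVA WT 2 alone was high, the same library that stood apart in T cell markers. The log2 difference was 0.10 (95% confidence interval -0.27 to 0.47, limma adjusted p = 0.76) and -0.08 without OVA WT 2, and the part of the T cell content was not tested. In the knockout it ran from 17.3 to 19.6 after saline and 14.8 to 22.6 after OVA (-0.06, 95% confidence interval -0.43 to 0.31, limma adjusted p = 0.93).

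*Ass1*, argininosuccinate synthase and the rate-limiting step of citrulline recycling, was the other gene that rose in wild type. It read 7.06, 7.75 and 6.62 in saline WT and 11.1, 10.9, 8.36 and 9.44 in OVA WT. The groups did not overlap in the deposited values. As a share of the column total they did, with OVA WT 3 at 7.71 parts per M and saline WT 2 at 8.3. Means were 7.14 ± 0.57 (SD, n = 3) and 9.95 ± 1.29 (SD, n = 4), a ratio of 1.39, and the log2 difference was 0.44 (SE 0.11, 95% confidence interval 0.22 to 0.67, limma adjusted p = 0.016). The call was lost without saline WT 1 (adjusted p = 0.053), without saline WT 3 (0.07), in a fit of the 2 groups alone (0.073) and when columns were scaled to equal totals (0.23 on the log2 scale, adjusted p = 0.17). That scaling moved the median of all genes to -0.17.

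In the knockout, *Ass1* read 7.94, 7.47 and 8.54 after saline and 7.88, 7.47, 7.04 and 7.23 after OVA. The groups overlapped, with a log2 difference of -0.10 (95% confidence interval -0.33 to 0.13, limma adjusted p = 0.77). After OVA all 4 knockout values were lower than the lowest wild-type value in the deposited values. As a share of the column total the groups overlapped, with OVA KO 2 at 7.87 parts per M and OVA WT 3 at 7.71. The log2 difference between genotypes after OVA was -0.39 (SE 0.10, 95% confidence interval -0.61 to -0.18), with an unadjusted limma p of 0.0013 and an adjusted p of 0.088. Without OVA KO 1 it was -0.42 with an adjusted p of 0.043. The difference between the OVA responses was -0.55 (SE 0.15, 95% confidence interval -0.87 to -0.22), with an unadjusted limma p of 0.0028 and an adjusted p of 0.64.

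*Asl*, argininosuccinate lyase, which completes the recycling, varied little, from 8.58 to 11.6 over all libraries. Its log2 difference with OVA was 0.09 in wild type (95% confidence interval -0.12 to 0.30, limma adjusted p = 0.63) and 0.16 in knockout (-0.04 to 0.37, limma adjusted p = 0.56). The *Ass1* to *Asl* ratio per kb was 1.23 to 1.67 in saline WT, between 1.57 and 2.13 in OVA WT, 1.44 to 1.99 in saline KO and 1.28 to 1.57 in OVA KO. These ranges overlapped or met, so the pair showed no clean separation of groups.

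*Odc1*, which makes putrescine from ornithine and so opens polyamine synthesis, was the most abundant member per kb in all 4 groups. It ran from 67.4 to 79.1 in saline WT, between 66.5 and 89.4 in OVA WT, 57.6 to 72.6 in saline KO and 55.7 to 88.5 in OVA KO. The highest libraries were OVA WT 2 (89.4) and OVA KO 3 (88.5), the pair richest in goblet cell markers, and the part of goblet cells was not tested. The log2 difference with OVA was 0.07 in wild type (95% confidence interval -0.25 to 0.40, limma adjusted p = 0.81) and -0.02 in knockout (-0.35 to 0.30, limma adjusted p = 0.97).

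Per kb of exon, the order of the mean levels in saline WT was *Odc1* (20.9), *Slc7a2* (6.45), *Nos3* (6.16), *Arg2* (4.64), *Ass1* (2.96), *Asl* (2.03), *Slc7a1* (1.55), *Nos2* (0.6), *Arg1* (0.54) and *Nos1* (0.0278). Neighbours whose library ranges overlapped there were *Slc7a2* with *Nos3*, *Nos3* with *Arg2*, and *Nos2* with *Arg1*. In OVA WT *Arg1* stood second at 12.6 per kb, though its range of 4.77 to 21.4 took in those of *Slc7a2* and *Nos3*. It stood at 0.667 in saline KO and at 2.29 in OVA KO, where it ranked sixth with a range of 0.578 to 3.88.

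**Figure D4:**
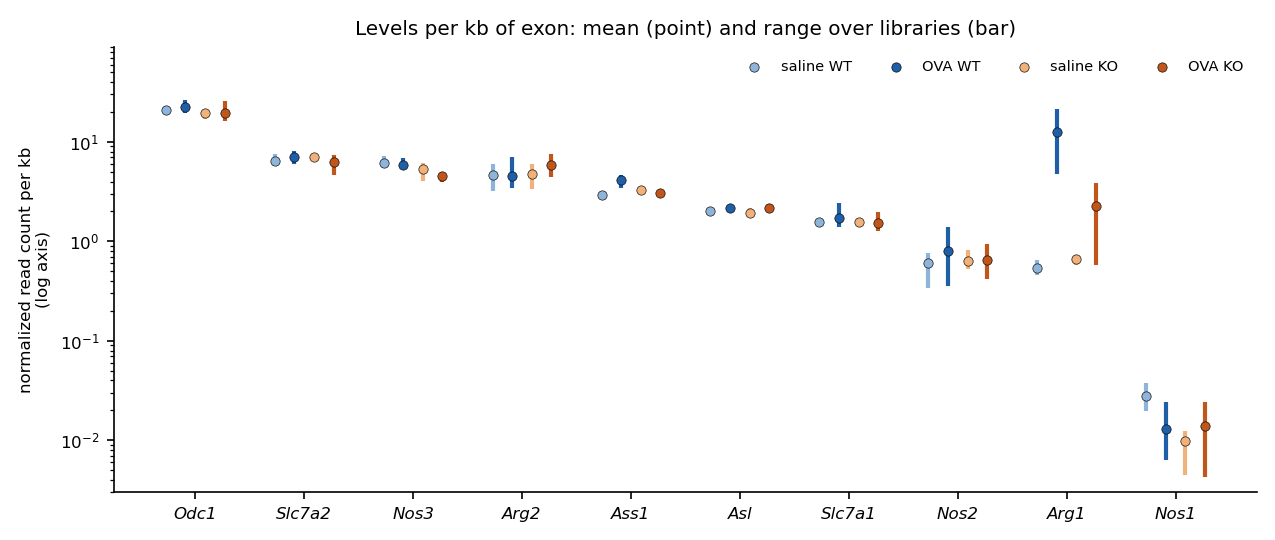
Normalized read count per kb of exon (vertical log axis) of the 10 genes, ordered by their saline WT mean, with the mean of each group as a point and the range over its libraries as a bar. *Arg1* moves from 0.54 in saline WT to 12.6 in OVA WT.

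Other genes of arginine handling came from 7 lists of 52 genes, 49 of them tested. In wild type 1 rose and 3 fell with OVA, against 4.36% of all genes higher and 7.45% lower. In the other 4 comparisons 0 of 49 passed by limma. An unadjusted p under 0.05 was seen for 12 of 49 with OVA in wild type, for 4 with OVA in knockout, for 10 and 1 between genotypes after OVA and saline, and for 2 in the difference between the responses. The shares of all genes were 26.1%, 11.3%, 17.8%, 3.32% and 7.02% in the same order. Pooled over the 7 lists, these counts were near the background, though single lists differed. The largest change was that of *Gatm*, glycine amidinotransferase, which uses arginine to begin creatine synthesis. It read 4.51, 3.21 and 4.3 in saline WT and 21.2, 32, 23.3 and 15.7 in OVA WT, without overlap. The log2 difference was 2.35 (SE 0.27, limma adjusted p = 0.00036) and passed under all 26 alternatives. In the knockout it read 3.26, 3.49 and 4.58 after saline and 13.5, 7.33, 11.8 and 6.13 after OVA, again without overlap. That difference was 1.2 (SE 0.27, limma adjusted p = 0.078). After OVA the highest knockout value was lower than the lowest wild-type value, with a difference of -1.23 (SE 0.25, limma adjusted p = 0.054), and the difference between the responses was -1.16 (SE 0.38, limma adjusted p = 0.64).

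In the list of creatine enzymes and deiminases, 1 of 7 genes passed, with a list median of 0.06 against 0.006 over all genes. In the list of the tetrahydrobiopterin cofactor that NO synthases need, 0 of 5 passed by limma, with 2 at an unadjusted p under 0.05. *Gch1*, the rate-limiting enzyme of the cofactor, stood at 16.7 in saline WT and 15.6 in OVA WT (limma adjusted p = 0.68).

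Of 5 other arginine carriers tested, 4 had an unadjusted limma p under 0.05 with OVA in wild type, against 26.1% of all genes. Their median log2 difference was -0.36, against 0.006 over all genes. With OVA in knockout 0 of the 5 had such a p, and the median was -0.07. By adjusted p, 1 of the 5 fell in wild type, against 7.45% of all genes. It was *Slc7a7*, the light chain of the y+L exporter of arginine. Means were 13.4 ± 0.733 (SD, n = 3) and 10.3 ± 1.32 (SD, n = 4), with a log2 difference of -0.38 (SE 0.10, limma adjusted p = 0.023). Leaving out OVA WT 1 ended the call (adjusted p = 0.061), as did leaving out OVA WT 3 (0.053) or OVA WT 4 (0.052), and so did leaving out saline WT 1 (0.082) or saline WT 2 (0.088). Among ornithine, urea and proline genes, 2 of 9 tested fell. *Nags*, which makes the activator of the urea cycle, was near the limit of detection, with 10 to 21 estimated reads in saline WT and 0 to 2 in OVA WT (limma adjusted p = 0.018). *Prodh*, proline dehydrogenase, had means of 17.4 ± 2.12 (SD, n = 3) and 13.4 ± 0.844 (SD, n = 4), a log2 difference of -0.36 (SE 0.11, limma adjusted p = 0.049). That call ended when any single library was left out, except saline WT 1, OVA KO 1 and OVA KO 4, with adjusted p-values from 0.056 to 0.18, and over all 26 alternatives it was lost under 18.

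None of 11 polyamine enzymes and regulators, 7 synthase regulators tested or 5 genes of the NO receptor and cyclic GMP passed in any comparison by limma. With OVA in wild type, the unadjusted p was under 0.05 for 0, 1 and 0 of them. Their median log2 differences with OVA in wild type were 0.00, 0.12 and 0.10, against 0.006 over all genes.

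**Figure D5:**
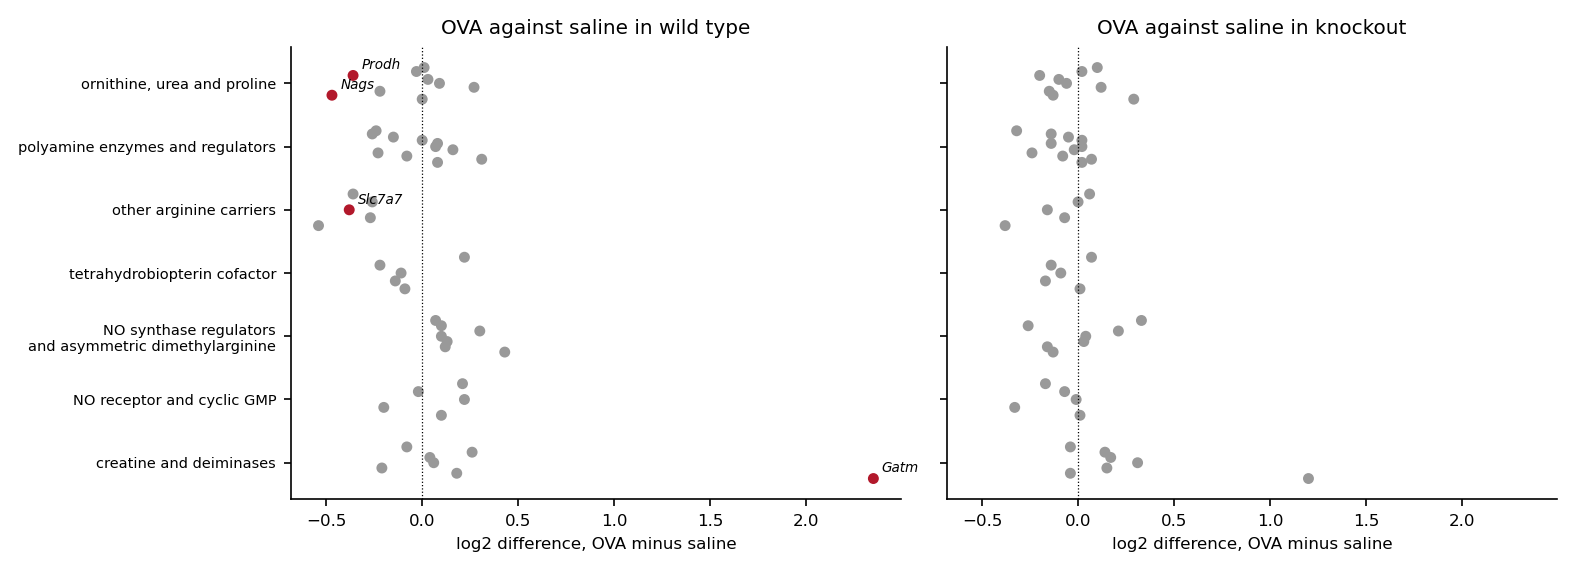
Log2 difference, OVA minus saline (horizontal axis), of 49 further genes of arginine handling (points) in 7 lists, in wild type (left) and knockout (right), with genes past an adjusted p of 0.05 in red and named. *Gatm* stands apart at 2.35 in wild type and 1.2 in knockout.

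Genes known to induce *Arg1* or *Nos2* were read beside them. Of 7 type 2 signals, 2 rose in wild type, against 4.36% of all genes, and 0 passed by limma in the other comparisons. With OVA in wild type 4 of the 7 had an unadjusted limma p under 0.05, against 26.1% of all genes. At most 1 did in each other comparison. With OVA in wild type their list median was 0.07 against 0.006 over all genes, and between genotypes after OVA it was -0.05 against 0.009. *Il13*, the cytokine that acts through STAT6, had an estimated 0 to 3 reads in saline WT and 9 to 19 in OVA WT (limma adjusted p = 0.0026), and 0 to 8 in OVA KO. *Il33*, an epithelial alarmin, rose from 72.9 ± 11.6 (SD, n = 3) to 134 ± 29.1 (SD, n = 4), with a log2 difference of 0.86 (SE 0.17, limma adjusted p = 0.0067). In the knockout it stood at 74.9 and 129, with a log2 difference of 0.77 (SE 0.17, limma adjusted p = 0.078).

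Of 5 interferon gamma signals, which induce *Nos2* in mouse macrophages, 3 rose in wild type, against 4.36% of all genes. By limma 0 passed in the other comparisons. With OVA in wild type 4 of the 5 had an unadjusted limma p under 0.05, against 26.1% of all genes. Between genotypes after OVA, 4 of the 5 had an unadjusted p under 0.05, against 17.8% of all genes. With OVA in wild type their list median was 0.50 against 0.006 over all genes, and between genotypes after OVA it was -0.36 against 0.009. *Irf1*, a transcription factor of the pathway, rose from 78.2 to 129 (0.71, SE 0.14, limma adjusted p = 0.0062), and stood at 74.4 and 81.7 in the knockout. *Ifng* itself (0.82, limma adjusted p = 0.0011) and the receptor chain *Ifngr2* (0.43, limma adjusted p = 0.021) also rose. The *Ifngr2* call ended with columns scaled to equal totals (adjusted p = 0.2), and when OVA WT 1 (0.061), saline WT 2 (0.1) or saline WT 3 (0.062) was left out.

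Marker lists of macrophages were read beside *Arg1*. A list of 10 markers of alternatively activated macrophages, which leaves out *Arg1*, summed to 553 to 601 in saline WT, between 3190 and 5020 in OVA WT, 549 to 635 in saline KO and 1020 to 3250 in OVA KO. With OVA in wild type 7 of the 10 rose, with a median log2 difference of 1.14, and in knockout 2 of the 10 rose, with a median of 0.73. Across all genes 4.36% were higher with OVA in wild type and 0.21% in knockout. OVA KO 4, at the saline level of *Arg1*, had the lowest sum of the OVA libraries (1020). Among the OVA WT libraries the order differed, since OVA WT 1 had the lowest *Arg1* (10.6) with a sum of 3670 and OVA WT 2 the highest (47.6) with a sum of 3320.

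Alveolar macrophage markers (8 genes, of which *Chil3* is also in the list before and *Fabp4* in the fat list) summed to 369 to 486, 1390 to 2150, 407 to 488 and 552 to 1420 in the same order of groups. Such a sum is weighted towards its most abundant genes. In wild type 4 of the 8 rose, with a median of 0.17, and in knockout the median was 0.21. Monocyte and interstitial macrophage markers (10 genes) summed to 186 to 241, 279 to 349, 171 to 205 and 226 to 298, with 8 of 10 higher in wild type and 1 of 10 in knockout. The shares of all genes that were higher were 4.36% and 0.21%. None of these markers was at the lowest value of its column in every library. After taking out the group means, Pearson r over the 14 libraries between *Arg1* and the marker sum was 0.73, 0.57 and 0.05 for these 3 lists. It was 0.67 for eosinophil markers, of which 3 of 5 were listed, 0.67 for plasma and B cell markers, 0.60 for smooth muscle and 0.54 for fat, and from -0.47 to 0.46 for the other 12 lists. The libraries share their 4 groups, and the part of any of these cells in the *Arg1* difference was not tested.

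The 3 genes most like *Arg1* in log2 value over the 14 libraries were *Rnase2a*, a secreted ribonuclease (Pearson r 0.973), *Cd209e*, a C-type lectin of the DC-SIGN family (0.972), and *Pdcd1lg2*, which encodes the PD-1 ligand PD-L2 (0.970). After taking out the group means their r with *Arg1* was 0.84, 0.90 and 0.84 over the same libraries, which the choice of the genes in part fixes. *Rnase2a* had means of 0.0318, 4.23, 0.0188 and 0.924 in saline WT, OVA WT, saline KO and OVA KO, so in saline it was near the lowest value of the columns. The 3 genes most like *Ass1* were *Tns4*, a focal adhesion protein (0.914), *Trim21*, a ubiquitin ligase and cytosolic antibody receptor (0.893), and *Ido2*, a tryptophan-degrading enzyme (0.891), with r of 0.75, 0.63 and 0.88 after taking out the group means. These are descriptions across libraries that share the 4 groups, and they were picked from all genes tested.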

How the data were processed

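Lung RNA was made into libraries with the KAPA mRNA HyperPrep kit and sequenced on an Illumina NovaSeq. The submitters' processing notes name STAR, Partek and mm10. The deposited values are normalized read counts, given by the authors as a signal per gene that need not be whole. Normalization, counting settings and use of strand are not given in the sources used here. Column totals ran from 907121 to 1148437. They were 1028263 to 1148437 in OVA WT and 907121 to 976143 in the saline libraries, without overlap, and 949436 to 1072809 in OVA KO. Estimated reads were taken as a value over the lowest value of its column, minus 1, and are approximate. Since whole reads could not be recovered for nearly all genes, no count model was used.

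Values were put on a log2 scale after adding 0.502, which equals 0.5 parts per M (ppm) of the average column sum. A gene was kept where 3 or more libraries had 0.2 ppm or more (22828 of 24270). limma 3.58.1 in R 4.3.3 fitted the 4 groups together with trend and robust empirical Bayes and 5 contrasts, at an adjusted p of 0.05, and the steps were tested on simulated data. The genes and lists were chosen with earlier results of these data known. All 10 members are described. Listed genes past the threshold are named, at most 4 per list and comparison, with the 3 genes most like *Arg1* and *Ass1*. *Gch1* was named after its values were seen. Exon lengths and positions came from GENCODE M21, which holds 99.6% of the gene identifiers. The table's own coordinates matched GRCm38 starts for 2.19% of genes and were not used. Alternatives covered scaling, pseudocount, filter, weights, the replicate block and each library left out. Some items of the lists are not reported here, and counts leave them out.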

Additional observations from a re-analysis of the deposited data

Results flagged for a closer look

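Among the 4 OVA WT libraries, *Arg2* in OVA WT 3 (10.2) lay far above the others (4.87 to 5.71), and *Slc7a1* in OVA WT 2 (28.0) lay far above the others (16.3 to 17.7). Both were picked out by Dixon's test for a single outlying sample at the 95% level, which chance passes in about 1 of 20 groups. It was applied to the 10 genes in OVA WT and OVA KO and not to the saline groups, so about 1 such flag would arise by chance. No explanation was tested for either.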

How the results depend on the processing

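The changes of the 10 genes were recomputed 1285 times over 5 comparisons and the alternatives. In 1267 the side of the threshold held together with the direction or, in 49 of these, with a switch of sign by less than 1 SE in a change that passed under neither setting. The number of members that passed with OVA in wild type was 2 and fell to 1 (*Ass1* lost) with columns scaled to equal totals and in a fit of only the groups compared, and ran from 1 to 2 when single libraries were left out, with 1 without saline WT 1 or saline WT 3. The number for knockout against wild type after OVA was 0 and became 1 (*Arg1*) with library weights, and 0 to 2 when single libraries were left out, with 2 (*Arg1*, *Ass1*) without OVA KO 1. Scaling to equal totals moved the median of all genes by -0.17 with OVA in wild type and by 0.11 between genotypes after OVA, and there turned the wild-type OVA changes of *Slc7a1* to -0.12, *Slc7a2* to -0.09, *Asl* to -0.13 and *Odc1* to -0.15. Without OVA WT 2, *Slc7a1* turned to -0.08 with OVA in wild type and to 0.05 between genotypes after OVA. Over single libraries left out, these ran from -0.08 to 0.18 and from -0.26 to 0.05. Without OVA WT 2 and OVA KO 3 it was -0.08 and 0.12, and 0.09 for the difference between responses. The cause of these shifts was not tested.

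Over all genes, the 2695 calls with OVA in wild type became 4807 with equal totals, 4701 with library weights and 1161 to 3030 with single libraries left out. The 86 calls with OVA in knockout became 645 with weights, 145 with equal totals, 24 in a fit of only the groups compared and 481 without OVA WT 2 and OVA KO 3, and with single libraries left out ran from 11 (saline KO 1) to 219 (OVA KO 4), including 15 without saline KO 3, 30 without saline KO 2, 40 without OVA KO 1, 48 without OVA KO 2 and 169 without OVA WT 2. The 89 calls between genotypes after OVA became 242 with weights, 17 in a fit of only the groups compared and 1109 without OVA KO 1, and fell to between 29 (without OVA WT 1) and 51 (without OVA KO 3) when any other library except OVA WT 2 (73) or OVA WT 3 (91) was left out. The 19 after saline became 48 with weights and 10 to 21 with single libraries left out. For the difference between responses, 1 gene passed, and 0 with a pseudocount of 2 ppm, and 0 to 2 with single libraries left out, with 0 for each saline library, OVA WT 1, OVA WT 3 and OVA KO 1, and 2 without OVA KO 2.

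Between same-numbered libraries, correlations of deviations from group means ran from -0.32 to 0.39, with no common direction. The labels do not say whether such libraries shared a litter, cage or run, and these correlations cannot settle it. With the replicate block, the members that passed between genotypes after OVA went from 0 to 1 (*Arg1*, adjusted p = 0.044), and all genes from 89 to 214 there, from 19 to 10 after saline and from 1 to 0 for the difference. Depth limits *Nos1*, *Nags* and *Il13*, each with 27 or fewer estimated reads per library, and *Ifng*, with 43 or fewer.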
